A study of Mus musculus with 15 samples.

Results

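The non-coding genes of the RNA-seq table were taken as every gene symbol for which each listed RefSeq transcript was a non-coding record (an accession of the NR series), leaving out Peg3os, H19, Meg3, Rian, Tslp and Rn45s. By this rule 388 of 10222 gene symbols were members, with 418 transcripts, and the values of a symbol's transcripts were summed. RPKM is a read number scaled to the transcript's length and to the reads of the library, so that levels can be set side by side between genes of different length. The members fell into 181 long non-coding RNAs (lncRNA), 77 pseudogenes, 51 genes that RefSeq annotates as protein-coding but that were listed only with a non-coding transcript, 45 microRNA (miRNA) hairpins, 30 small nucleolar or small Cajal body RNAs (snoRNA) and 3 structured RNAs (Rmrp, Rpph1 and Rn4.5s). The symbol Gm17066 was not matched to RefSeq.

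All cells came from C57BL/6 mice that carried the IL33-citrine reporter as heterozygotes, in which a fluorescent protein reports Il33 transcription, and they were sorted and lysed without culture. The 5 populations were Il33+ and Il33- mesenchymal stromal cells of white adipose tissue (WAT-MSC), stromal cells of the lung sorted as Il33+, CD31+ endothelial cells of the WAT and Epcam+ epithelial cells of the lung, with 3 libraries each from independent experiments. The labels give mesenteric fat as the source of the WAT-MSC and only WAT for the endothelial cells. The WAT-MSC were gated as lineage-negative, CD45-, Epcam-, CD31-, CD24-, PDGFRα+, CD34+, Sca1+ and Podoplanin+. No treatment or age is stated. The comparisons set Il33+ WAT-MSC against Il33- WAT-MSC, lung Il33+ MSC and WAT endothelial cells, and lung epithelial cells against lung Il33+ MSC. The Il33+ WAT-MSC libraries enter 3 of these comparisons and the lung Il33+ MSC libraries enter 2, so the comparisons are not independent of each other.

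A lncRNA is a long transcript without a recognised open reading frame. Some act in the nucleus as scaffolds (Malat1, Neat1), some silence genes near their own locus (Airn), and some are spliced mainly to release snoRNAs from their introns (Gas5, the Snhg genes). snoRNAs guide the modification of ribosomal RNA, and a miRNA hairpin is cut to a short RNA that pairs with mRNAs through its seed. A processed pseudogene is a copy of an mRNA inserted into the genome, so reads can fit both the copy and its parent gene.

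Libraries held 42711843 to 60773158 alignments, with a median of 53038567. The summed level of 8 stromal markers was 3380 to 6241 RPKM in the 3 MSC populations, 1556 to 3180 RPKM in endothelial cells and 120 to 188 RPKM in epithelial cells. The summed level of 8 endothelial markers was 619 to 712 RPKM in endothelial cells and 14 to 122 RPKM elsewhere. Lung epithelial markers summed to 162679 to 210205 RPKM in epithelial cells, nearly all of it the club cell gene Scgb1a1, and to 59.7 to 559 RPKM elsewhere. Replicate 1 of the endothelial cells stood apart, with 130 members listed at 0 against at most 93 elsewhere, so endothelial results are also given without it.

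Levels were low for most members. The median of the mean RPKM over 15 libraries was 1.58 for lncRNAs, 4.36 for pseudogenes, 0.867 for miRNA hairpins and 1.29 for snoRNAs, against 4.33 for the 9829 symbols with a coding transcript. At least 1 library was listed at 0 for 50.5% of members and for 16.9% of the coding symbols. A mean above 10 RPKM was reached by 45 members, 24 of them pseudogenes and 14 lncRNAs. The highest was Malat1, with a mean of 969.9 RPKM and rank 13 among all symbols. Its level was 725 to 1121 RPKM in Il33+ WAT-MSC, 978 to 1164 RPKM in Il33- WAT-MSC, 808 to 894 RPKM in lung Il33+ MSC, 873 to 1339 RPKM in endothelial cells and 529.8 to 1186 RPKM in epithelial cells. In each of the 4 comparisons the libraries overlapped, and Malat1 passed the test in none of them.

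The miRNA and snoRNA entries were read apart from the long transcripts. The mature sequences of the hairpins on which later results turn are shown here from RefSeq (GRCm38.p6), with the seed (bases 2 to 8) in capitals, and no pair of them shares a seed. Among the 45 miRNA entries 40 had a mature sequence in RefSeq, with 59 mature sequences and 58 different seeds.
mmu-miR-6236, chr9:110281353-110281371, plus strand: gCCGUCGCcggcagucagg
mmu-miR-682, chr13:75645119-75645139, plus strand: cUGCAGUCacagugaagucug
mmu-miR-703, chr5:98475616-98475636, minus strand: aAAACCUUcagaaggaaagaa
mmu-miR-6240, chr5:114851973-114851998, plus strand: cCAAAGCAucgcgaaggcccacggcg
mmu-miR-568, chr16:43640665-43640684, plus strand: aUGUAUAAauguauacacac
mmu-miR-678, chr10:76207333-76207354, minus strand: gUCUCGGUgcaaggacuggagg
The values of these entries came from reads over the whole hairpin, and the mature RNA itself was not measured apart from it.

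For short genes the RPKM values fell on steps, since the length and 1 read fix the smallest possible value. With the step of each library, 300 of 323 small-RNA values above 0 and under 10 reads were whole reads to within 0.1 (92.9%, 63.6 to 100% by library). In a gene of 80 bases 1 read was worth 0.337 to 0.485 RPKM. Over the 75 miRNA and snoRNA entries and 15 libraries, 47.1% of values were at 0 and 61.8% rested on 3 reads or fewer. Only 18 entries had more than 10 reads on average and 2 had more than 100. The spread between replicates was also wider for these classes. Among genes with a mean of 3 to 10 RPKM the median SD of log2(RPKM + 1) between replicates was 0.925 for 7 miRNA hairpins and 0.978 for 8 snoRNAs, against 0.564 for 30 lncRNAs and 0.495 for 3848 genes that are not members.

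**Figure D1:**
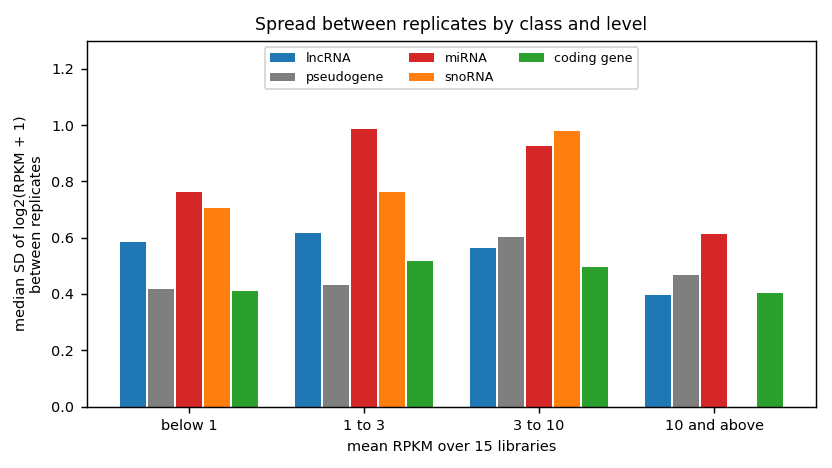
Median SD of log2(RPKM + 1) between the replicates of a population (vertical axis), for genes of each class (bars) within 4 ranges of mean RPKM over 15 libraries (horizontal axis). The red miRNA bars stand above the green bars of coding genes that are not members in every range, as at 3 to 10 RPKM (0.925 against 0.495). No snoRNA reached a mean of 10 RPKM.

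The highest miRNA entry, Mir6236, had 196 to 361 RPKM in 14 libraries and 1419 RPKM in replicate 3 of the endothelial cells, about 6403 reads. The ribosomal precursor Rn45s was at 11787 RPKM in the same library, the highest of the 15, and at 5018 to 8967 RPKM in the others. Over 15 libraries the log2 values of Mir6236 and Rn45s had r = 0.762, as a description of points that share depth and population. Mir6236 made up most of the summed level of the miRNA entries in that library, which was 1627 RPKM in that library and 303 to 530 RPKM elsewhere. The sum of the 30 snoRNA entries was 30.5 ± 2.6 RPKM (SD, n = 3) in epithelial cells and 60.6 ± 18.2 RPKM in lung Il33+ MSC, and no library of the former (27.4 to 32.0 RPKM) reached the latter (40.2 to 74.9 RPKM).

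Several miRNA entries lay in the sequence of a messenger RNA. Of 45 hairpins 12 lay wholly and 5 partly inside exons of coding genes, 20 lay in a coding gene outside its exons and 8 lay outside coding genes. Mir678 lay in an untranslated exon of Prmt2, an arginine methyltransferase gene, on the same strand, and its level had r = 0.918 with Prmt2 over 15 libraries. Mir568 lay in the same way in Zbtb20, a zinc finger transcription factor gene (r = 0.908), and Mir8097 in Rnf19a (r = 0.637). These were among the closest pairs, since over the 12 wholly exonic hairpins the median r with the host was 0.27, with 3 above 0.7 and the lowest at -0.298 (Mir5113 with Tnrc6b, named after its value was seen). Besides Mir678 and Mir568 the pair above 0.7 was Mir6385 with Pml, on the opposite strand (r = 0.74, also named after its value was seen). Reads of an exonic hairpin and its mRNA cannot be told apart.

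Mir682 and Mir703 matched coding genes elsewhere in the genome. The hairpin of Mir682 lies on chromosome 13 and was 99.0% identical to the ribosomal protein mRNA Rpl37a, and Mir703 on chromosome 5 was 98.2% identical to the elongation factor mRNA Eef1a1. Both hairpins are shown from RefSeq, with the substituted base against that mRNA in capitals. Bases are counted from 1 at the hairpin's 5′ end (C48U in Mir682 and A27G in Mir703, the hairpin base first). Only substitutions are marked, and the 98.2% identity of Mir703 over 109 aligned bases implies a further difference that is not shown.
Mir682, chr13:75645046-75645141: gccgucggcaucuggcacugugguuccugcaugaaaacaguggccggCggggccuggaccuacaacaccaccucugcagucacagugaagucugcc
Mir703, chr5:98475556-98475664: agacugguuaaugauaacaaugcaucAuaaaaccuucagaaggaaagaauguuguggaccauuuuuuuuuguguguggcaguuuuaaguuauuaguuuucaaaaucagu
Mir682 had 27.3 to 113 RPKM and r = 0.929 with Rpl37a, whereas Mir703 had 2.97 to 22.0 RPKM and r = 0.426 with Eef1a1. Neither passed the test in any comparison.

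Pseudogenes held 8 of the 10 highest places among members other than small RNAs. They were Gm1821 (a copy of the ubiquitin gene Ubb), Gm12191 (Rpl30), Gm12070 (Gapdh), Gm15772 (Rpl26), Gm6793 (Hnrnpa3), Rplp2-ps1, Atp6v0c-ps2 (Atp6v0c) and Rps15a-ps6 (Rps15a), with means of 49.5 to 146 RPKM. A sequence was found for 72 of 77 pseudogenes, and 45 had a listed gene with at least 90% identity over at least 50% of their length. For these the median identity was 98.3%, the median r with that gene over 15 libraries was 0.589, and 26 had r above 0.5. Gm12070 is 99.9% identical to Gapdh, a glycolytic enzyme gene, and followed it with r = 0.996 at 69.8 RPKM on average against 88.4 RPKM for Gapdh. Gm12191 was at 117 RPKM on average while its parent Rpl30, at 99.7% identity, was at 2.83 RPKM. How the reads of such pairs were shared between copy and parent is not given in the sources used here, so these levels are uncertain.

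**Figure D2:**
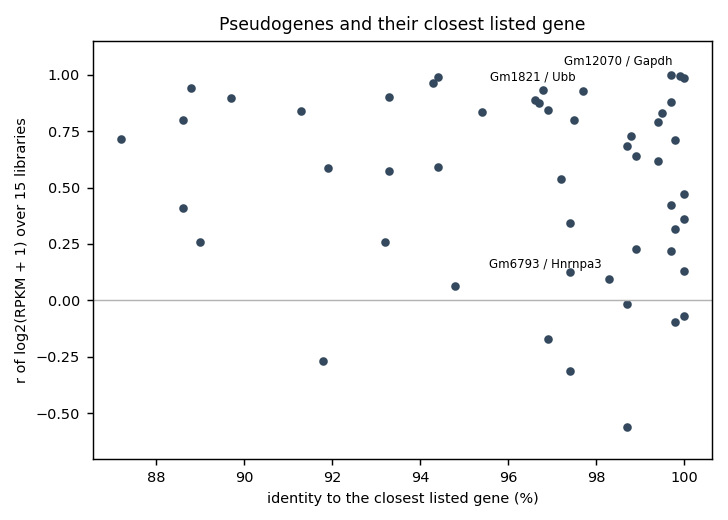
Identity (%) of each pseudogene to its closest listed gene over at least 50% of its length (horizontal axis) against r of their log2(RPKM + 1) over 15 libraries (vertical axis). Of 51 points, 9 lie above r = 0.9, among them Gm12070 with Gapdh, and 7 lie below 0.

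Il33+ and Il33- WAT-MSC were compared first. In this contrast 1 of 235 members tested passed an adjusted p of 0.05 (limma, adjusted by the Benjamini-Hochberg method over all 8448 genes tested), where 1.57% of all genes passed (0.923% higher). That member was A730020M07Rik, a lncRNA on chromosome 3 that lies outside coding genes, 77084 bases from the nearest listed coding gene, the coagulation initiator F3. Its level was 6.95, 10.5 and 7.61 RPKM in the Il33+ libraries and 0.43, 1.63 and 0.47 RPKM in the Il33- libraries. The groups did not overlap, and the difference was 2.39 ± 0.36 on the log2(RPKM + 1) scale (SE, adjusted p = 0.00845). The call held without each of the 6 libraries in turn. It missed the threshold with no filter on low values (adjusted p = 0.0573).

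Other members differed less. At an unadjusted p under 0.05 there were 30 of 235 members, beside 950 of the 8213 tested genes that are not members. The libraries of 27 of the 235 members did not overlap, where those of 17.5% of all genes did not. The median log2 difference was -0.01 for members and -0.01 for all genes. Airn, which silences Igf2r from the paternal allele, had 10.7, 12.7 and 13.3 RPKM in Il33+ cells and 27.0, 25.6 and 19.5 RPKM in Il33- cells, but its adjusted p was 0.108. No snoRNA host, miRNA host or RNP RNA passed. The summed level of 5 mesothelial markers was 25.5 to 106 RPKM in Il33+ libraries and 0.03 to 22.3 RPKM in Il33- libraries, and the sum of leukocyte markers 3.65 to 5.29 RPKM and 9.3 to 28.6 RPKM. The part of these markers in the result was not tested. Without Il33- replicate 1, in which the mesothelial sum was 0.03 RPKM, 2 members and 122 of all genes passed, beside 1 and 133 with all 6 libraries. In such bulk samples fewer cells of a type and less RNA per cell cannot be told apart.

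Il33+ MSC of WAT and lung were compared next. Of 236 members tested 12 passed (5.1%, against a background of 6% of all genes), 3 higher in WAT (2.5% of all genes were) and 9 higher in lung (3.5% of all genes were). The libraries of 42 members did not overlap (17.8%, against 23.1% of all genes). A730020M07Rik was again higher in WAT, since the lung libraries had 1.82, 1.92 and 1.41 RPKM (difference 1.77 ± 0.27, limma adjusted p = 0.00333). This call held without each library and under every other alternative. Against endothelial cells it did not pass, since these had 0.9, 8.42 and 2.71 RPKM. In the epithelial cells it was at 0.05 to 0.3 RPKM.

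Among the members higher in lung MSC were 3 lncRNAs of known context. Fendrr, a lncRNA beside the mesenchymal transcription factor gene Foxf1 at 1276 bases, was at 4.06, 4.59 and 4.22 RPKM in lung MSC and at 1.06, 1.16 and 1.73 RPKM in Il33+ WAT-MSC. The groups did not overlap, with a log2 difference of -1.20 ± 0.27 (WAT minus lung, limma adjusted p = 0.0279). Fendrr was also at 9.02, 3.26 and 3.67 RPKM in lung epithelial cells and at 0.22 to 0.45 RPKM in Il33- WAT-MSC, and its highest value of all was 12.6 RPKM in endothelial replicate 1. Foxf1 was at 8.29 to 13.6 RPKM in lung MSC, 2.96 to 6.92 RPKM in Il33+ WAT-MSC and 0.97 to 4.39 RPKM in epithelial cells. The pair had r = 0.115 over 15 libraries. Carmn, a lncRNA of smooth muscle, was at 2.66, 1.51 and 1.43 RPKM in lung MSC and at 0 to 0.2 RPKM in Il33+ WAT-MSC, with 6.47 RPKM in endothelial replicate 1 (-1.33 ± 0.31, limma adjusted p = 0.0282). AW112010, a transcript described in inflammatory responses, was at 13.4, 13.3 and 22.3 RPKM in lung MSC and at 6.51 to 8.31 RPKM in WAT (-1.06 ± 0.26, limma adjusted p = 0.0367).

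Each of these 3 calls was lost without at least 1 library, AW112010 without any one of the 6. Carmn was lost without Il33+ WAT-MSC replicate 1 or 3 or any lung library, and Fendrr without Il33+ WAT-MSC replicate 1 or any lung library. All 3 were also lost with all 15 libraries in one fit, and Carmn with quantile normalization or a pseudocount of 0.1. AW112010 and Fendrr were lost with the lane as a covariate. Replicates 1, 2 and 3 were on lanes 1, 1 and 2 for Il33+ WAT-MSC and on lanes 1, 2 and 2 for lung Il33+ MSC. The other members higher in lung were Gm16907, Gm13749, E230013L22Rik, the pseudogenes Serpina3h and BC002163 and the snoRNA DQ267102, with log2 differences from -1.83 to -1.30. Among the left-out fits DQ267102 passed without each library, Gm16907 failed only without lung replicate 1 and Serpina3h only without lung replicate 3. Serpina3h also failed with a pseudocount of 0.1. The others lost their call without 4 or more of the 6 libraries. Serpina3h belongs to the Serpina3 family of secreted protease inhibitors, and its closest listed gene is Serpina3n (87.2% identity). DQ267102 rested on 11, 7 and 5 reads in the lung libraries and on 0, 0 and 1 in those of WAT. Higher in WAT were also AF357399, a snoRNA entry within the ribosomal protein gene Rps16, at 6.0 to 8.25 RPKM against 0.3 to 2.32 RPKM, and Gm15417 at 1.13 to 2.02 RPKM against 0.01 to 0.35 RPKM. The call of AF357399 was lost without Il33+ WAT-MSC replicate 1 and that of Gm15417 without any one library.

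The number of members that passed was 4, 5 and 6 without lung replicate 1, 2 and 3, 6 without Il33+ WAT-MSC replicate 3, and 9 and 11 without the others. Over all genes it was 347, 261 and 362, then 397, then 403 and 502 in the same order, beside 513 with all 6 libraries. Leukocyte markers (4 of 6 listed) summed to 123 to 153 RPKM in the lung libraries, most of it Lyz2, and to 3.65 to 5.29 RPKM in Il33+ WAT-MSC. Lung epithelial markers summed to 189 to 559 RPKM against 74.5 to 149 RPKM, and mesothelial markers to 4.28 to 7.7 RPKM against 25.5 to 106 RPKM. Endothelial markers summed to 43.1 to 74.2 RPKM against 23.1 to 46.4 RPKM. Mural cell markers were lower in lung, at 4.97 to 7.4 RPKM against 10.9 to 19.2 RPKM. The part of these markers in the differences was not tested.

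Endothelial cells of the WAT were set against Il33+ WAT-MSC. The labels name the MSC as mesenteric and give no depot for the endothelial cells, so a difference between depots and one between cell types cannot be told apart. Of 233 members tested 7 passed (3.0%, against 3.9% of all genes), 5 higher (3.34% of all genes) and 2 lower (0.565%). The libraries of 44 did not overlap (18.9%, against 23.2% of all genes). The largest difference was that of Gm16548, a lncRNA that overlaps the genes of P-selectin (Selp) and coagulation factor V (F5) on the opposite strand of chromosome 1. It was at 88.0, 31.9 and 19.9 RPKM in endothelial cells and at 0, 0.34 and 0.28 RPKM in Il33+ WAT-MSC, a log2 difference of 5.04 ± 0.53 (limma adjusted p = 0.00143). No library of the other 3 populations exceeded 1.18 RPKM. The call held without each library and under all other alternatives.

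Selp, an adhesion receptor of activated endothelium, was at 184, 61.1 and 55.1 RPKM in the same endothelial libraries and at 0.1 to 3.13 RPKM elsewhere, and both genes had the same order of the endothelial libraries (r = 0.971 over 15 libraries). Of the 1226 exonic bases of Gm16548, 700 lay within exons of coding genes. The library kit does not mark strand, and reads of the overlapping parts cannot be told apart.

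The next were Gm17757 and Gm18853, pseudogenes of the very large interferon-inducible GTPase family, at 7.0, 8.59 and 5.1 RPKM and at 10.0, 8.42 and 4.9 RPKM in endothelial cells and at no more than 0.65 RPKM in Il33+ WAT-MSC. Their log2 differences were 2.75 ± 0.40 and 2.73 ± 0.43 (limma adjusted p = 0.00613 and 0.00959). Gm18853 had r = 0.97 with Gvin1, which it overlaps on the same strand. Gm17757 and Gm18853 are 100% identical over 3592 bases, so that their values are not independent. Mir155hg, the host transcript of the immune miRNA miR-155, was at 3.23, 3.28 and 3.91 RPKM in endothelial cells, above the 0.05 to 0.32 RPKM of Il33+ WAT-MSC and the 1.25 to 1.77 RPKM of lung Il33+ MSC (against Il33+ WAT-MSC 1.89 ± 0.37, limma adjusted p = 0.0266). The last was 4930578C19Rik, at 1.64 to 2.64 RPKM against 0 to 0.14 RPKM.

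Lower in endothelial cells were Gm13363, a copy of the phosphatase gene Ptp4a1 with 99.4% identity, at 21.5 to 29.8 RPKM against 51.6 to 60.8 RPKM, and the hairpin Mir678 shown above. Mir678 was at 0, 0.09 and 1.94 RPKM in endothelial cells against 7.19, 6.02 and 6.35 RPKM, and Prmt2 at 0.02, 0.23 and 1.68 RPKM against 3.63, 2.39 and 2.89 RPKM. Without endothelial replicate 1 the count was 10 members, 8 higher and 2 lower, while that of all genes moved from 338 to 447. The member count was 1, 3 and 2 without Il33+ WAT-MSC replicate 1, 2 and 3 (131, 163 and 151 of all genes). It was 2 without endothelial replicate 2 (150 of all genes) and 5 without endothelial replicate 3 (418 of all genes). Mir155hg and 4930578C19Rik passed only without endothelial replicate 1 among these left-out fits, Gm13363 passed in none of them, and Gm17757 failed only without Il33+ WAT-MSC replicate 1. Gm18853 also failed without Il33+ WAT-MSC replicate 3 and endothelial replicate 2, and Mir678 passed only without endothelial replicate 1 or 3. Mural cell markers (6 genes) summed to 186 to 267 RPKM in endothelial libraries and to at most 19.2 RPKM elsewhere. Stromal markers summed to 1556 to 3180 RPKM in endothelial libraries and to 4355 to 5598 RPKM in Il33+ WAT-MSC, and mesothelial markers to 51.8 to 186 RPKM and 25.5 to 106 RPKM. Leukocyte markers summed to 8.21 to 127 RPKM in endothelial libraries and to 3.65 to 5.29 RPKM in Il33+ WAT-MSC, and the part of these markers was not tested.

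The contrast of lung epithelial cells and lung Il33+ MSC, of the same organ, held most of the differences. Of 261 members tested 98 passed (37.5%, where 43% of all genes passed), 45 higher (18.5% of all genes) and 53 lower (24.4%). By class 66 of 121 lncRNAs passed (54.5%), 10 of 67 pseudogenes (14.9%), 13 of 42 genes annotated as coding (31.0%), 5 of 13 snoRNAs (38.5%) and 3 of 14 miRNA hairpins (21.4%), beside 43.1% of the genes that are not members. The libraries of 120 members did not overlap (46%, against 53.4% of all genes). The median log2 difference was -0.08 for lncRNAs and -0.13 for all genes. Under median-ratio scaling the median of all genes moved to 0.06, and 56 members were then higher and 46 lower. No named member that passed changed direction under either scaling alternative. Without a lung MSC library the count was 80 to 82 (3302 to 3517 of all genes), and without an epithelial library 85 to 102 (3647 to 4165 of all genes). With all 6 libraries 4019 of all genes passed.

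The 8 lncRNAs with the largest differences were at under 2 RPKM outside the epithelial cells. AU040972, which lies within an intron of the tumour suppressor gene Nf1 on the opposite strand (chromosome 11), was at 431, 159 and 150 RPKM in epithelial cells and at 0.24, 0.27 and 1.87 RPKM in lung Il33+ MSC, a log2 difference of 7.05 ± 0.46 (limma adjusted p = 3.29e-06). In no MSC or endothelial library did it exceed 1.87 RPKM. Nf1 itself was at 1.99 to 4.06 RPKM in epithelial cells and at 3.54 to 9.18 RPKM elsewhere. The pair had r = -0.748 over 15 libraries, which follows the split between epithelial cells and the rest. The Nf1 ranges overlapped, with endothelial replicate 1 (3.54 RPKM) below epithelial replicate 2 (4.06 RPKM).

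1600029I14Rik, which overlaps Nme9, was at 52.9, 38.1 and 64.2 RPKM in epithelial cells and at no more than 0.33 RPKM in any other library (5.53 ± 0.27, limma adjusted p = 9.14e-07). C230072F16Rik, which lies outside coding genes on chromosome 17, was at 72.0, 46.8 and 53.1 RPKM against at most 0.79 RPKM (5.41 ± 0.28, limma adjusted p = 1.04e-06). D430036J16Rik, 2310034G01Rik, B430010I23Rik and Rptoros were at 7.77 to 21.04 RPKM in epithelial cells and at no more than 0.36 RPKM in lung Il33+ MSC. B430010I23Rik lies across Mtus1 on the opposite strand, and Mtus1 was at 25.6 to 34.9 RPKM in epithelial cells and 6.29 to 14.6 RPKM elsewhere.

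E030019B13Rik, named Sfta3-ps in RefSeq, lies 2538 bases from Nkx2-1, the transcription factor gene that defines the lung epithelium. It was at 22.8, 7.12 and 10.3 RPKM in epithelial cells and at 0.14 RPKM or less in every other library (3.59 ± 0.39, limma adjusted p = 6.81e-05). Nkx2-1 was at 36.9, 45.5 and 64.6 RPKM in epithelial cells and at 0.73 RPKM or less elsewhere, and the pair had r = 0.97, which follows the split between epithelial cells and the rest. Within the 3 epithelial libraries the order of the pair differed, since the library with the most E030019B13Rik had the least Nkx2-1.

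**Figure D3:**
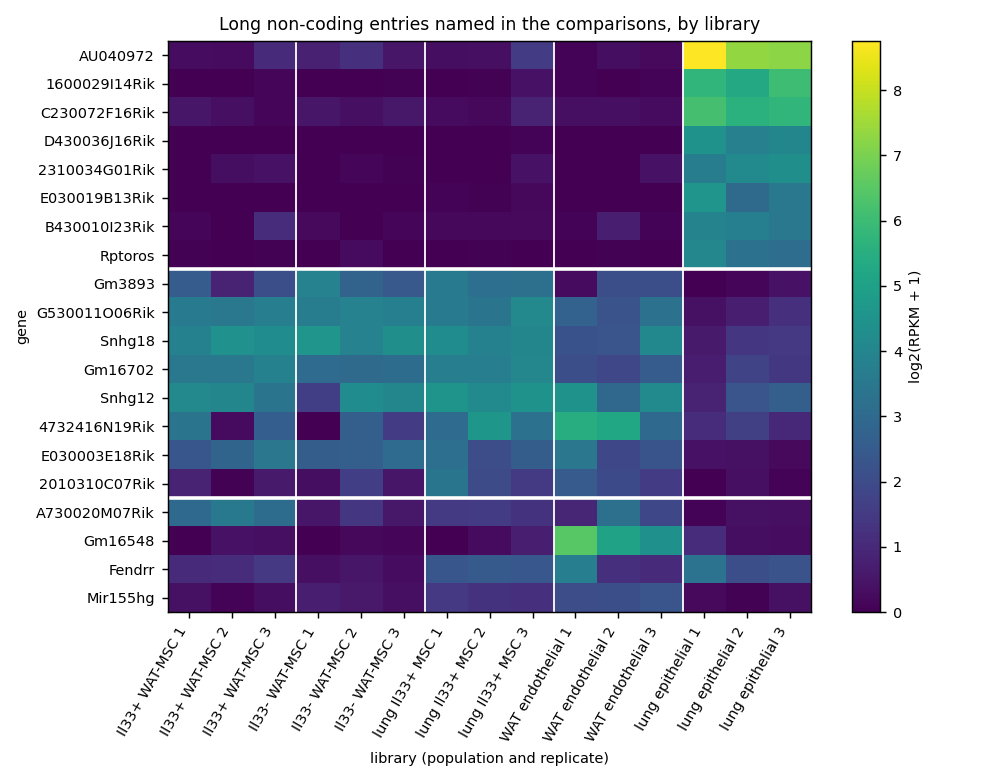
Level as log2(RPKM + 1) (colour) of 20 long members (rows) in each of the 15 libraries (columns, grouped by population). The upper 8 rows, led by AU040972, are bright only in the lung epithelial libraries, the middle 8 are dark there, and in the lower 4 Gm16548 is bright in the endothelial libraries, A730020M07Rik in Il33+ WAT-MSC and in endothelial replicate 2.

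**Figure D4:**
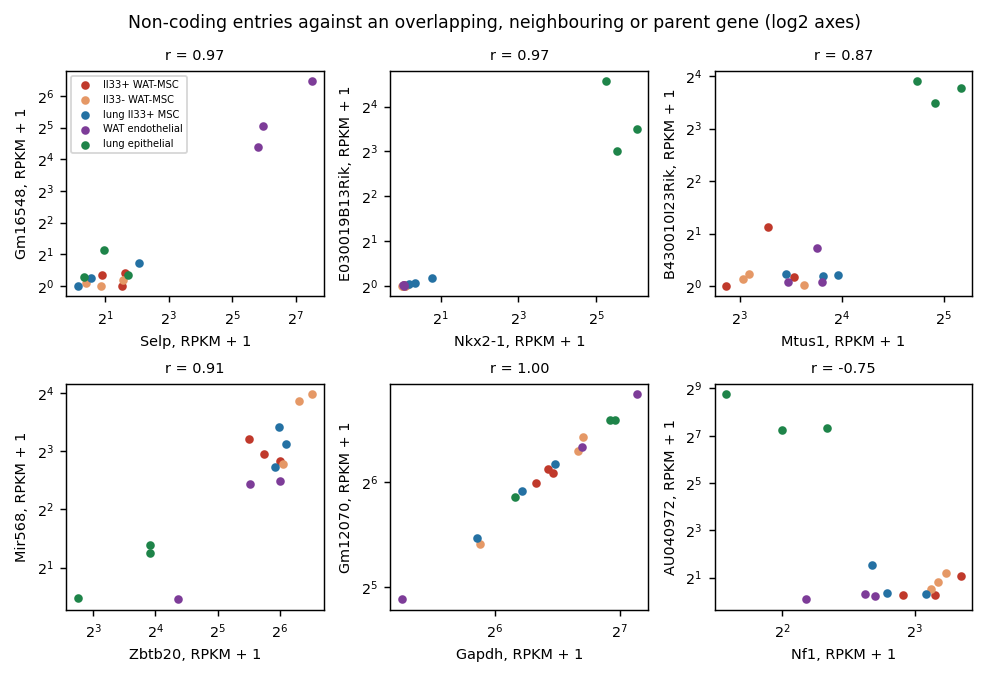
RPKM + 1 of 6 members (vertical, log2 axis) against that of an overlapping, neighbouring or parent gene (horizontal, log2 axis), 1 point per library and 1 colour per population, with r of the log2 values. Gm16548 and Selp are high together in endothelial cells, E030019B13Rik and Nkx2-1 in epithelial cells, and AU040972 is high only in epithelial cells, where the mean of Nf1 is lowest.

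Neat1, the scaffold of nuclear paraspeckles, was at 28.1, 32.0 and 36.4 RPKM in epithelial cells and at 5.62, 6.49 and 3.32 RPKM in lung Il33+ MSC (2.46 ± 0.26, limma adjusted p = 5.92e-05). It was not restricted to epithelium, since endothelial cells had 16.5, 33.6 and 20 RPKM and replicate 1 of the Il33- WAT-MSC 29.6 RPKM. Among the 6 listed nuclear lncRNAs Neat1 was higher in epithelial cells, Airn and Norad (listed as 2900097C17Rik) were lower, and Malat1, Tug1 and Oip5os1 (1700020I14Rik) did not pass. Of all genes 18.5% were higher and 24.4% lower. Airn was at 6.77, 3.69 and 8.09 RPKM against 16.3, 12.4 and 13.1 RPKM (-1.10 ± 0.29, limma adjusted p = 0.0126), and its call was lost without lung replicate 1 and under median-ratio scaling. Norad, which binds Pumilio proteins, was at 8.91, 8.97 and 9.07 RPKM against 13.6, 14.6 and 15.3 RPKM (-0.63 ± 0.20, limma adjusted p = 0.0309). The call was lost without any one lung MSC library, without epithelial replicate 2 or 3, and under 3 other alternatives. Igf2r, whose intron Airn crosses, had r = 0.766 with it over 15 libraries.

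Of the snoRNA host genes 7 of 15 were lower in epithelial cells and 0 higher, where 24.4% of all genes were lower. The list names 21 genes, of which these 15 were listed and tested, 8 did not pass, and 12 of the 15 differences were negative, with a median of -0.90 beside -0.13 over all genes. None passed in the other 3 comparisons, where 13 of the 15 were tested and the medians lay between -0.06 and 0. Gas5, the best known of them and a 5′ terminal oligopyrimidine transcript that carries many snoRNAs in its introns, was at 6.39, 7.54 and 11.3 RPKM in epithelial cells and at 23.1, 22.9 and 23.9 RPKM in lung Il33+ MSC (-1.40 ± 0.24, limma adjusted p = 0.00124). In the other 3 populations it was at 21.3 to 34.6 RPKM, so that the 3 epithelial libraries were the lowest of the 15.

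Snhg12 was at 0.82, 3.98 and 5.33 RPKM in epithelial cells against 22.3, 16.7 and 21.8 RPKM (-2.45 ± 0.43, limma adjusted p = 0.00134). Snhg18 was at 0.54, 1.64 and 1.76 RPKM against 17.99, 13.3 and 15.1 RPKM (-2.87 ± 0.30, limma adjusted p = 5.31e-05). It starts 148 bases from Sema5a, a guidance factor gene on the opposite strand, which was at 0.83 RPKM on average in epithelial cells and at 8.54 RPKM in lung Il33+ MSC. Snhg5 was at 2.14, 3.54 and 2.74 RPKM against 10.9, 13.5 and 15.4 RPKM (-1.91 ± 0.26, limma adjusted p = 0.000264). Zfas1, Snhg8 and Snhg15 also passed, with log2 differences of -1.74, -1.53 and -1.16, and each lost its call without any one of at least 2 libraries. The epithelial and lung MSC libraries of Snhg15 overlapped. The hosts that did not pass were Snhg1, Snhg3, Snhg4, Snhg6, Snhg7, Snhg10, Snhg14 (C230091D08Rik) and Snhg16 (1810032O08Rik), with means of 0.43 to 4.62 RPKM in lung Il33+ MSC. Without lung replicate 3 the list had 4 members lower, and without any other library 5 or 6. Without epithelial replicate 1 there was also 1 higher. The differences were negative for 8 of 15 hosts without lung replicate 3 (median -0.69) and for 11 to 13 without any other library. With median-ratio scaling 7 were lower and 11 of 15 differences were negative.

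**Figure D5:**
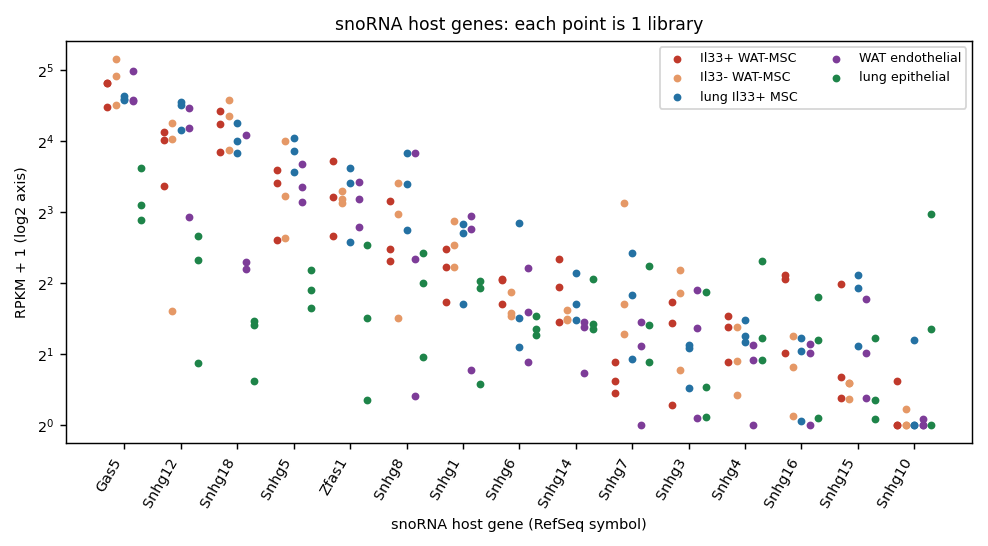
RPKM + 1 (log2 axis) of the 15 listed snoRNA host genes (horizontal axis, RefSeq symbols, by falling mean level), with 1 point per library and 1 colour per population. The green epithelial points of Gas5, Snhg18 and Snhg5 lie below the points of all other populations, and for the lower genes to the right the populations overlap.

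The start-site windows of 4 hosts that were lower in epithelial cells are shown, with the letters CTTT searched anywhere in them. CTTT within a window is not by itself an oligopyrimidine stretch at the start. In Snhg5 it lies further downstream, past bases that include G. The windows run from 10 bases before to 20 bases after the annotated start (RefSeq, GRCm38.p6, on the transcript's strand), with the letters CTTT in capitals. They were chosen because they hold these letters, and Gas5 has a second annotated start further upstream whose window lacks them.
Gas5, chr1:161035156-161035185, plus strand: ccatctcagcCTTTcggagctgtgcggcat
Snhg12, chr4:132308668-132308697, plus strand: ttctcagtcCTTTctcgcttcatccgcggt
Snhg8, chr3:123508317-123508346, minus strand: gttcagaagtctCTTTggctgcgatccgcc
Snhg5, chr9:88522878-88522907, minus strand: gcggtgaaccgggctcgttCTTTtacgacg
CTTT was searched on both strands of the same window. It was found in 7 of 14 windows of the 13 hosts with one (7 hosts), in each on the transcript's strand, and in 21.8% of 32851 windows of all genes on either strand (11.6% on the transcript's strand). No other motif was searched. Of the other hosts that were lower Snhg15 had the letters and Snhg18 and Zfas1 lacked them, and of those that did not pass Snhg10 and Snhg16 had them and Snhg1, Snhg3, Snhg7 and Snhg14 lacked them.

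Several lncRNAs outside the snoRNA hosts were also lower in epithelial cells. G530011O06Rik, opposite to Mid1 on the X chromosome, was at 0.32, 0.68 and 1.33 RPKM against 11.54, 9.42 and 16.3 RPKM (-2.92 ± 0.32, limma adjusted p = 6.7e-05). Gm16702 was at 0.63, 2.47 and 1.66 RPKM against 12.5, 12.5 and 15.7 RPKM (-2.55 ± 0.32, limma adjusted p = 0.000159). E030003E18Rik lies on the same strand within Aldh1a1, a retinaldehyde dehydrogenase gene, yet was at 0.16 to 0.34 RPKM in epithelial cells against 3.21 to 8.18 RPKM in lung Il33+ MSC, while Aldh1a1 was at 363 to 667 RPKM against 17.7 to 38.9 RPKM. The member and its gene thus differed in opposite directions. Mir100hg (listed as 3110039I08Rik), the host of miR-100, was at 0.15, 0.03 and 0.34 RPKM against 2.72, 3.55 and 6.09 RPKM (-2.08 ± 0.31, limma adjusted p = 0.000493). The pseudogene Gm3893 was at 0.02 to 0.35 RPKM against 8.17 to 11.53 RPKM, and 4732416N19Rik and 2010310C07Rik had log2 differences of -2.39 and -2.15.

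Of 15 members whose symbol marks them as opposite-strand RNAs 11 were tested in this comparison and 6 passed (54.5%, where 43% of all genes passed), 4 of them higher and 2 lower. They were Rptoros, described above, Has2os, Med9os, Uckl1os, Lppos and Brip1os, the last named after its value was seen (lower, at means of 3.5 RPKM against 7.997 RPKM, limma adjusted p = 0.00673). Has2os, across the hyaluronan synthase gene Has2, was listed at 0 in all 3 epithelial libraries and at 1.37, 3.55 and 1.34 RPKM in lung Il33+ MSC, and Has2 was at 0.16 to 0.63 RPKM against 8.88 to 14.5 RPKM. Med9os and Uckl1os were higher in epithelial cells, at 2.25 to 3.21 RPKM and 2.91 to 8.16 RPKM, against 0 to 0.31 RPKM for both in lung Il33+ MSC. Lppos was at 1.52 to 3.36 RPKM against 0.18 to 1.2 RPKM, a call lost without 4 of 6 libraries, and Lpp was at 10.7 RPKM on average in epithelial cells and at 28.5 RPKM in lung Il33+ MSC.

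3 snoRNA entries of the imprinted Dlk1 region on chromosome 12 were lower in epithelial cells. AF357425, a snoRNA entry contained in transcripts of Rian, was at 0, 0.39 and 0 RPKM (0, 1 and 0 reads) in epithelial cells and at 7.98, 7.67 and 12.9 RPKM (18, 17 and 31.2 reads) in lung Il33+ MSC (-3.20 ± 0.30, limma adjusted p = 2.79e-05). AF357355 and DQ267102, of the same region, were listed at 0 in all epithelial libraries and rested on 3 to 6 and 5 to 11 reads in lung Il33+ MSC. Rian was at 0.46 to 1.02 RPKM in epithelial cells and at 14.1 to 18.7 RPKM in lung Il33+ MSC, and for AF357425 and AF357355, whose sequences are held whole by a Rian transcript, the reads of snoRNA and host cannot be told apart. Of 13 snoRNAs tested 4 were lower and 1 higher. The other entries that passed were Snora31, lower at 4.76, 4.35 and 3.79 RPKM against 4.92, 15.6 and 18.6 RPKM (-1.24 ± 0.42, limma adjusted p = 0.0402), and Snora28, higher at 10.2, 2.46 and 2.34 RPKM against 0.51, 2.06 and 0.47 RPKM (1.42 ± 0.51, limma adjusted p = 0.0485). Neither overlapped between the groups, and the call was lost without 5 of 6 libraries for Snora31 and without 3 of 6 for Snora28. Under the other alternatives Snora28 passed in 2 of 8 and Snora31 in 6 of 9.

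Of the hairpins shown above Mir568 was lower in epithelial cells, at 0.4, 1.63 and 1.37 RPKM against 7.74, 5.62 and 9.65 RPKM (-2.05 ± 0.33, limma adjusted p = 0.000842). Zbtb20, in whose exon it lies, was at 5.76 to 14.1 RPKM against 59.4 to 67.4 RPKM. Mir6240 was lower at 1.99 to 6.94 RPKM against 11 to 13.3 RPKM (-1.19 ± 0.37, limma adjusted p = 0.0284), a call lost without any one lung library. Its level had r = 0.504 with Rn45s over 15 libraries, and Rn45s was at 5018 to 6382 RPKM against 5615 to 8967 RPKM. Mir678 was higher at 12.5 to 16.6 RPKM against 2.67 to 10.8 RPKM (1.38 ± 0.41, limma adjusted p = 0.0222), a call lost without lung replicate 1 or 2 or epithelial replicate 1 or 2. Rmrp, the RNA of the mitochondrial RNA processing complex, was at 5.45, 2.17 and 1.44 RPKM against 17.2, 8.94 and 7.69 RPKM (-1.66 ± 0.42, limma adjusted p = 0.01), and Rpph1, the RNA of RNase P, did not pass, at 12.6 to 24.8 RPKM against 9.94 to 36.9 RPKM.

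The remaining lists held few genes. Of 8 genes on the list of imprinted RNAs 6 were tested in the epithelial comparison, where 43% of all genes passed. A330076H08Rik was higher in epithelial cells, a call lost without 5 of 6 libraries, and Airn, AF357355 and AF357425 were lower. The list also holds AF357399, but this entry lies within Rps16 on chromosome 7 and not in the Dlk1 region, so its higher level in Il33+ WAT-MSC than in lung Il33+ MSC is no result about imprinted RNAs, and no other gene of the list passed there. Of 4 miRNA hosts 3 were tested in the epithelial comparison, and Mir155hg and Mir100hg were lower there. All 4 were tested in the endothelial comparison, and Mir155hg was higher there (3.34% of all genes were higher). Of 2 developmental RNAs Fendrr was lower in Il33+ WAT-MSC than in lung Il33+ MSC. The stress RNA Morrbid (listed as Gm14005) was lower in epithelial cells (limma adjusted p = 0.0489), a call lost without 5 of 6 libraries. No other tested member of these lists passed in any comparison.

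Leukocyte markers (4 of 6 listed) summed to 688 to 1318 RPKM in epithelial libraries and to 123 to 153 RPKM in lung Il33+ MSC, most of it Lyz2, which alveolar epithelium also transcribes. Mesothelial markers summed to 81.8 to 156 RPKM against 4.28 to 7.7 RPKM, most of it the epithelial keratin gene Krt19, and endothelial markers to 88.9 to 122 RPKM against 43.1 to 74.2 RPKM. The part of these markers in the differences was not tested. The club cell gene Scgb1a1 was at 160613 to 208003 RPKM in the epithelial libraries and at most 493 RPKM elsewhere, and its part in the differences of other genes was not tested beyond the scaling alternatives.

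Across all 5 populations the members were spread much as coding symbols were. The highest mean lay in epithelial cells for 25.8% of members and 28.7% of coding symbols, in endothelial cells for 25.3% and 19.97%, in Il33- WAT-MSC for 20.1% and 20.95%, in Il33+ WAT-MSC for 15.5% and 16.01% and in lung Il33+ MSC for 13.4% and 14.4%. Within the members the classes differed, with 33.1% of lncRNAs but 4.44% of miRNA hairpins and 3.33% of snoRNAs highest in epithelial cells. Pseudogenes were highest in endothelial cells for 35.06%, beside 19.97% of coding symbols. For a small RNA the highest mean can rest on 1 library, as for Snord15a with 108.5 reads in Il33- WAT-MSC replicate 1. Of 181 lncRNAs 98 overlapped a coding gene and 114 lay within 5000 bases of a listed one, with a median r of 0.154 to that gene over 15 libraries and 16 with r above 0.7. Pairs such as Gm16548 with Selp were thus a minority.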

How the data were processed

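The authors amplified RNA of sorted cells (Ovation RNA-seq System V2), aligned reads to mm10 with TopHat2 in Partek software, per the labels and methods, and deposited RPKM values for 12698 RefSeq transcripts. How reads were assigned to overlapping or repeated transcripts is not given in the sources used here. RPKM was summed per symbol. The trended eBayes test of limma 3.58.1 (R 4.3.3) was run on log2(RPKM + 1), which understates changes of low genes, for genes at 1 RPKM or more in at least 3 of 6 libraries, adjusted over all genes tested with a threshold of 0.05. The fit was tested on simulated data. p-values measure the spread between 3 libraries from independent experiments. RefSeq (GRCm38.p6) matched 387 of 388 members and gave sequences. GENCODE M21 gave exons and distances. Copies were sought with blastn 2.17.0+. Python 3.11.15 was used otherwise.

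Members and gene lists were chosen with earlier results of these data known. Named are long members with the 8 largest and small RNAs with the 5 largest called, non-overlapping differences in each direction, the 10 highest of each, members of the lists and called opposite-strand RNAs named after a listed gene. Partners are overlapping or nearest listed genes, hosts or closest copies, and Rn45s was chosen after its values were seen. The kit does not mark strand. Libraries were not treated as paired by replicate number. Whether same-numbered libraries were paired is not given in the sources used here.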

Additional observations from a re-analysis of the deposited data

How the results depend on the processing

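The number of members that passed was 1, 12, 7 and 98 in the 4 comparisons (in the order Il33- WAT-MSC, lung Il33+ MSC, endothelial, epithelial). Against Il33- WAT-MSC it was 5 with the replicate block, 2 with all 15 libraries in one fit and 3 with median-ratio scaling. It was 2 with quantile normalization, 2 with no filter, and 1 to 2 when single libraries were left out. Of all genes 232, 115, 194, 192 and 45 passed under these settings in the same order, beside 133. Against lung Il33+ MSC it was 7 with the lane as a covariate (396 of all genes), 5 with the stricter filter (422), and 4 to 11 with libraries left out. In endothelial cells it was 4 with the replicate block (335 of all genes) and 12 with all 15 libraries (805). It was 3 with a pseudocount of 0.1 (252), and 1 to 10 with libraries left out. In epithelial cells it was 50 with the stricter filter (3268 of all genes), which tested 131 members in place of 261. It was 80 to 102 with libraries left out. Over all genes the counts with libraries left out were 55 to 122, 261 to 502, 131 to 447 and 3302 to 4165, beside 133, 513, 338 and 4019 with all libraries. Apart from the stricter filter, the cause of the shifts was not tested. Same-numbered libraries had deviations that correlated at -0.067 to 0.155, and no comparison had every pair above 0.1. For Il33+ and Il33- WAT-MSC the values were 0.044, 0.061 and 0.106. These values do not settle whether the libraries were paired. The replicate block counts were 5, 11, 4 and 105 members, with 232, 454, 335 and 4186 of all genes, and are given only here. Of 976 values of called, named members under an alternative, 801 stayed past the threshold, 175 kept the direction only, and 0 reversed. In the endothelial comparison median-ratio scaling moved the median of all genes from -0.18 to -0.03. Of the small-RNA values 61.8% rested on 3 reads or fewer, and no alternative with another depth was run.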
